A study of Homo sapiens with 9 samples.

Results

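BiP, the Hsp70 chaperone of the endoplasmic reticulum (ER) encoded by HSPA5, was examined together with the genes of 8 proteins that act with it: HYOU1, DNAJC3, DNAJB11, DNAJB9, SDF2L1, SIL1, MANF and CRELD2. The genes were chosen by symbol from probe sets that the platform annotation assigns to a single gene. All 9 were measured, each by 1 probe set, among 14207 genes tested. They were listed by role with earlier results of these arrays known. Measured values enter the rule itself only in the choice of the brightest probe set where a gene has several, which was the case for none of the 9.

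The samples were 9 Affymetrix arrays, labelled by a whole-transcript protocol, of total RNA from the human line ARPE-19, which derives from the pigment epithelium of the retina. The line received vehicle or cigarette smoke condensate at 100 or 250 µg/ml, with 3 arrays for each of these 3 groups. The condensate was a commercial preparation from research cigarettes, dissolved in DMSO, and it contains nicotine. Cells of every group had been grown to confluence with serum and then kept in medium with albumin instead. The series title poses the question of the unfolded protein response under oxidative stress, which is the question these genes bear on. The labels number the arrays 1 to 3 within a group and leave unsaid whether separate cultures lie behind them, so each p-value reflects only the spread among these arrays, possibly a technical one. How long the cells were treated was not stated in the labels used here.

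BiP binds hydrophobic stretches of proteins that enter the ER and releases them in cycles of ATP binding and hydrolysis. J-domain proteins deliver clients to it and stimulate hydrolysis, and nucleotide exchange factors reset it. BiP also holds the stress sensors ATF6, IRE1 and PERK inactive, and ATF6 and XBP1 act on the promoters of ER chaperone genes when unfolded proteins accumulate. HSPA5 is widely used as a read-out of that response, and retinal pigment epithelium, a secretory and phagocytic tissue, depends on ER folding.

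Among the 12 genes listed as markers of pigment epithelium, 11 were measured. OTX2, MITF, KRT8, KRT18 and TJP1 lay above the array median on all 9 arrays. RPE65, BEST1 and TTR lay below the lower quartile on all 9 arrays, so these markers of mature pigment epithelium were at the bottom of the scale. Of 11 measured markers of other cells, PTPRC, PECAM1, VWF, CDH5 and KCNJ8 lay below the lower quartile on all arrays, whereas CD68 and PDGFRB lay above the median on all of them. Array medians of the log2 values lay between 4.52 and 4.72, and the median change over all genes was -0.05 log2 units at 100 µg/ml and -0.04 at 250 µg/ml. Values are array summaries on a log2 scale after a normalization that sets arrays to a common level, so a change in total RNA per cell cannot be seen, and fewer cells of a kind cannot be told apart from less RNA per cell.

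The promoters are shown for HSPA5, HYOU1, CRELD2 and SDF2L1 because these 4 of the 9 hold letters of an ER stress response element within the 300-base window searched, from 250 bases before to 50 bases after the RefSeq start site. The 250 bases before the start site are printed 5′ to 3′ on the strand of the gene, from RefSeq on GRCh38.p14, with the matches in capitals. They lie at chr9:125241344-125241593 on the minus strand for HSPA5, chr11:119057206-119057455 on the minus strand for HYOU1, chr22:49918384-49918633 on the plus strand for CRELD2 and chr22:21642052-21642301 on the plus strand for SDF2L1.
HSPA5: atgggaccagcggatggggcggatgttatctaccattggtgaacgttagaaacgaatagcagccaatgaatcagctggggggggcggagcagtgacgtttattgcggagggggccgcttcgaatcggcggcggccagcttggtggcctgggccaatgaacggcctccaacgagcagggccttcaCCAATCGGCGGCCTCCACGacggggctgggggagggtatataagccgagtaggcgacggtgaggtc
HYOU1: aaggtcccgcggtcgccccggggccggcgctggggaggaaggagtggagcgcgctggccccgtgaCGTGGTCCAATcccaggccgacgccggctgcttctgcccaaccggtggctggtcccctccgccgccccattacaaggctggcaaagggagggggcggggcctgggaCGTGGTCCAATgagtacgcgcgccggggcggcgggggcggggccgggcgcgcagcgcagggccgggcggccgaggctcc
CRELD2: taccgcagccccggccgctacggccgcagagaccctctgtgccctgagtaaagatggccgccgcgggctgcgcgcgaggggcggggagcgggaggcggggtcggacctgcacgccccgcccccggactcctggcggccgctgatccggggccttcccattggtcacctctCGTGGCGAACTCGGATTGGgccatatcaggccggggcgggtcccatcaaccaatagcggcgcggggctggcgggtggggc
SDF2L1: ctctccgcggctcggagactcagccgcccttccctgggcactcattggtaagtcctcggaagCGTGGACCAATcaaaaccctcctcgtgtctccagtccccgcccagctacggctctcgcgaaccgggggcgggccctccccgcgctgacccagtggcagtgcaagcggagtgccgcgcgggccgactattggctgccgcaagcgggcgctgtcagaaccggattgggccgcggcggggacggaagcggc

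The ER stress response element, ERSE, was searched as CCAAT, then any 9 bases, then CCACG, and its second form, ERSE-II, as ATTGG, then any 1 base, then CCACG, on both strands. Read in the direction of the motif, with the fixed letters in capitals, the 5 matches were as follows, the pair in HYOU1 being identical in sequence.
HSPA5 ERSE: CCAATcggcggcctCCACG
CRELD2 ERSE: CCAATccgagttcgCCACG
HYOU1 ERSE-II: ATTGGaCCACG
SDF2L1 ERSE-II: ATTGGtCCACG
Positions are those of the first base of a match along the strand of the gene, counted from the start site. The ERSE lay at -66 in HSPA5 and at -80 in CRELD2. The ERSE-II lay at -185 and -79 in HYOU1 and at -188 in SDF2L1. The HSPA5 match reads along the strand of the gene. The others read along the opposite strand, so their positions are those of the CCACG end. Among all 35116 promoter windows, 0.077% held an ERSE and 0.054% an ERSE-II, and 0.131% held either. HYOU1 also held the XBP1 site UPRE (TGACGTGG), found in 0.729% of windows, which overlaps its first ERSE-II. The core of the antioxidant response element, TGACNNNGC, was found in CRELD2 and SDF2L1 and in 13.3% of all windows. The shorter CCAAT and CCACG, which form the ends of an ERSE, were found in 9 and 7 of the 9 promoters and in 34.6% and 38.1% of all windows. The windows of DNAJC3, DNAJB11, DNAJB9, SIL1 and MANF do not hold the exact ERSE or ERSE-II letters. Inexact copies were not searched in any window, and sites elsewhere were not searched either.

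**Figure D1:**
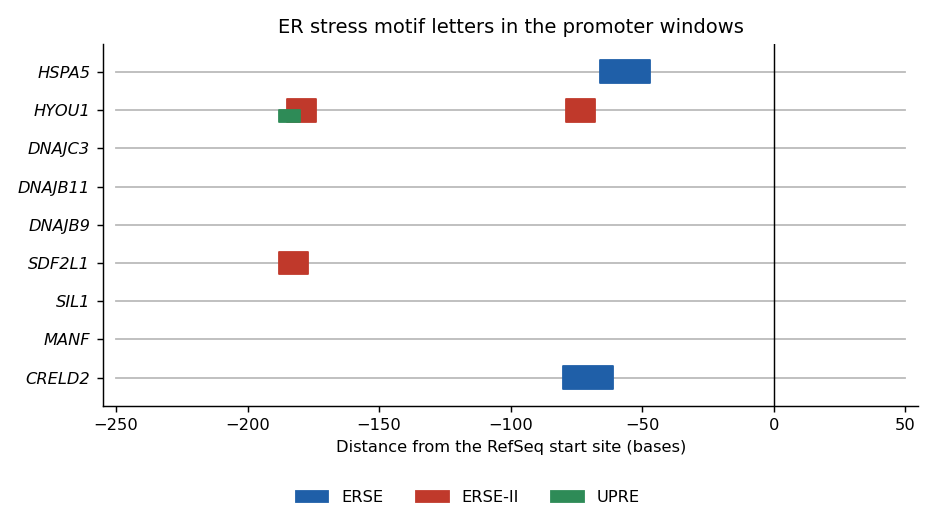
Positions of exact ERSE, ERSE-II and UPRE matches on either strand in the promoter windows of the 9 genes, with distance from the RefSeq start site in bases on the horizontal axis. HSPA5 and CRELD2 hold an ERSE at -66 and -80, HYOU1 holds an ERSE-II at -185 and -79, and SDF2L1 holds an ERSE-II at -188.

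HSPA5 itself lay higher in cells given condensate on average, but its arrays overlapped and it did not pass the test. BiP had log2 values of 7.86, 8.81 and 7.90 on the vehicle arrays, 9.29, 9.22 and 8.32 at 100 µg/ml, and 9.16, 9.22 and 8.76 at 250 µg/ml. Vehicle array 2 stood above the lowest array of each dose, and the array numbered 3 was the low one at both doses. The mean difference from vehicle was 0.75 ± 0.33 log2 units at 100 µg/ml (SE, n = 3 per group, limma adjusted p = 0.339 over all genes, 95% interval 0.0057 to 1.502) and 0.86 ± 0.33 at 250 µg/ml (limma adjusted p = 0.247, 95% interval 0.11 to 1.61). Without vehicle array 2 the differences were 1.06 and 1.17, with adjusted p of 0.308 and 0.148 from the same limma fit. Without the arrays numbered 3 of both doses, an alternative chosen after the data were seen, they were 1.06 and 1.00, with adjusted p of 0.158 and 0.155.

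HYOU1 rose at both doses and was the only one of the 9 genes past the threshold at each of them. It encodes GRP170, a large Hsp70-like protein that exchanges nucleotide on BiP and also holds unfolded proteins itself. HYOU1 had log2 values of 7.45, 8.32 and 7.87 on the vehicle arrays, 9.43, 9.41 and 9.45 at 100 µg/ml, and 9.66, 9.72 and 9.56 at 250 µg/ml. The 3 arrays of each dose lay within 0.04 and 0.16 log2 units of each other, while the vehicle arrays spread over 0.87, and neither dose overlapped the vehicle. HYOU1 rose 2.93-fold at 100 µg/ml, a log2 change of 1.55 ± 0.19 (SE, 3 arrays per group, limma adjusted p = 0.0487), and 3.41-fold at 250 µg/ml, by 1.77 ± 0.19 (limma adjusted p = 0.0111). Ordered by size of rise, HYOU1 stood at rank 37 of the 14207 genes for 100 µg/ml and at rank 21 for 250 µg/ml.

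The HYOU1 call at 100 µg/ml depended on single arrays, while the size of its change varied less. The change at that dose ran from 1.34 to 1.77 over the 9 fits that left out a single array. The limma adjusted p was 0.072 without vehicle array 1, 0.309, 0.31 and 0.0758 without the 100 µg/ml arrays 1, 2 and 3, and 0.119, 0.113 and 0.0863 without the 250 µg/ml arrays 1, 2 and 3, which bear on it only through the shared spread and the adjustment over all genes. At 250 µg/ml the call was lost without the 250 µg/ml arrays 1 (adjusted p = 0.0596) or 2 (adjusted p = 0.0933) and held without each of the other 7.

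The other nucleotide exchange factor, SIL1, differed little between groups. SIL1 had log2 values of 5.73, 6.19 and 6.25 on the vehicle arrays, 6.23, 6.31 and 6.12 at 100 µg/ml, and 6.06, 6.64 and 5.97 at 250 µg/ml, and all groups overlapped. Its difference from vehicle was 0.17 ± 0.20 at both doses, with limma adjusted p of 0.733 and 0.705. The 95% intervals, from -0.30 to 0.63 at each dose, leave room for a rise of up to about the size seen for DNAJB11 at 100 µg/ml.

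The 3 J-domain genes of the set differed from one another. DNAJB11 encodes ERdj3, a soluble ER protein that binds clients and passes them to BiP. DNAJB11 had log2 values of 7.59, 7.996 and 7.59 on the vehicle arrays, 8.35, 8.21 and 8.47 at 100 µg/ml, and 8.75, 8.73 and 8.69 at 250 µg/ml. The 3 groups did not overlap each other, and the values stood in the order of the dose. DNAJB11 rose 1.99-fold at 250 µg/ml, a log2 change of 0.99 ± 0.13 (SE, 3 arrays per group, limma adjusted p = 0.0239), and had a difference of 0.62 ± 0.13 at 100 µg/ml (limma adjusted p = 0.173). Its call at 250 µg/ml was lost without the 100 µg/ml arrays 1 (adjusted p = 0.0627) or 2 (adjusted p = 0.0559) and without the 250 µg/ml arrays 1 (adjusted p = 0.111) or 2 (adjusted p = 0.133).

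DNAJC3 encodes P58IPK, which binds clients for BiP and is known as a brake on the kinase PERK. DNAJC3 had log2 values of 6.75, 6.86 and 7.24 on the vehicle arrays, 7.42, 7.83 and 7.89 at 100 µg/ml, and 7.88, 8.19 and 7.95 at 250 µg/ml. Neither dose overlapped the vehicle, while both doses overlapped each other by a narrow margin. DNAJC3 rose 2.08-fold at 250 µg/ml, by 1.06 ± 0.18 log2 units, at the very edge of the threshold (limma adjusted p = 0.04999), and had a difference of 0.76 ± 0.18 at 100 µg/ml (limma adjusted p = 0.188). That call held without vehicle array 3 (adjusted p = 0.0253) and was lost without any other single array, with adjusted p between 0.0608 and 0.196.

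DNAJB9 encodes ERdj4, which targets BiP to the sensor IRE1 and acts in ER-associated degradation. DNAJB9 had log2 values of 4.31, 5.28 and 4.27 on the vehicle arrays, 4.7997, 4.55 and 4.63 at 100 µg/ml, and 4.69, 4.61 and 4.54 at 250 µg/ml. The treated arrays of both doses lay inside the span of the vehicle arrays, whose array 2 was the highest of the 9. Apart from vehicle array 2, the DNAJB9 values lay near or below the array medians, which ran from 4.52 to 4.72. The difference from vehicle was 0.04 ± 0.25 at 100 µg/ml (limma adjusted p = 0.964) and -0.0039 ± 0.25 at 250 µg/ml (limma adjusted p = 0.995). Without vehicle array 2 it was 0.37 at 100 µg/ml and 0.33 at 250 µg/ml, and without vehicle array 3 it was -0.14 and -0.18, so the sign hung on single vehicle arrays.

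CRELD2, MANF and SDF2L1 are small ER stress genes whose products work beside BiP. CRELD2 encodes a secreted protein with disulfide isomerase activity. CRELD2 had log2 values of 4.92, 5.96 and 5.55 on the vehicle arrays, 6.80, 6.71 and 6.27 at 100 µg/ml, and 6.48, 6.71 and 6.77 at 250 µg/ml. Neither dose overlapped the vehicle, and both doses overlapped each other. The difference from vehicle was 1.12 ± 0.26 log2 units at 100 µg/ml (2.17-fold, limma adjusted p = 0.187) and 1.18 ± 0.26 at 250 µg/ml (2.26-fold, limma adjusted p = 0.0808), larger in mean than those of DNAJC3 and DNAJB11 but with a wider spread of the vehicle arrays (SD 0.53 against 0.26 and 0.23). At 250 µg/ml CRELD2 passed with array weights (adjusted p = 0.0459) and when only the brighter genes were kept (adjusted p = 0.0482). It passed under no other alternative, the fits with a single array left out included.

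SDF2L1 encodes an ER protein that holds ERdj3 complexes together and supports the BiP cycle. SDF2L1 had log2 values of 3.24, 3.75 and 3.29 on the vehicle arrays, 4.07, 3.70 and 3.42 at 100 µg/ml, and 4.16, 4.01 and 3.82 at 250 µg/ml. All of these values lay below the median of their array. The 100 µg/ml arrays overlapped the vehicle arrays and the 250 µg/ml arrays lay above all of them, with differences of 0.30 ± 0.20 (limma adjusted p = 0.505) and 0.57 ± 0.20 (limma adjusted p = 0.219).

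MANF encodes a stress-induced protein that binds BiP and is released from cells as a trophic factor. MANF had log2 values of 7.60, 8.15 and 7.79 on the vehicle arrays, 8.06, 7.999 and 8.02 at 100 µg/ml, and 7.82, 8.14 and 8.31 at 250 µg/ml. Both doses overlapped the vehicle because of its array 2. The differences were 0.18 ± 0.17 at 100 µg/ml and 0.24 ± 0.17 at 250 µg/ml, with limma adjusted p of 0.65 and 0.501 and an upper 95% bound of 0.56 and 0.62.

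**Figure D2:**
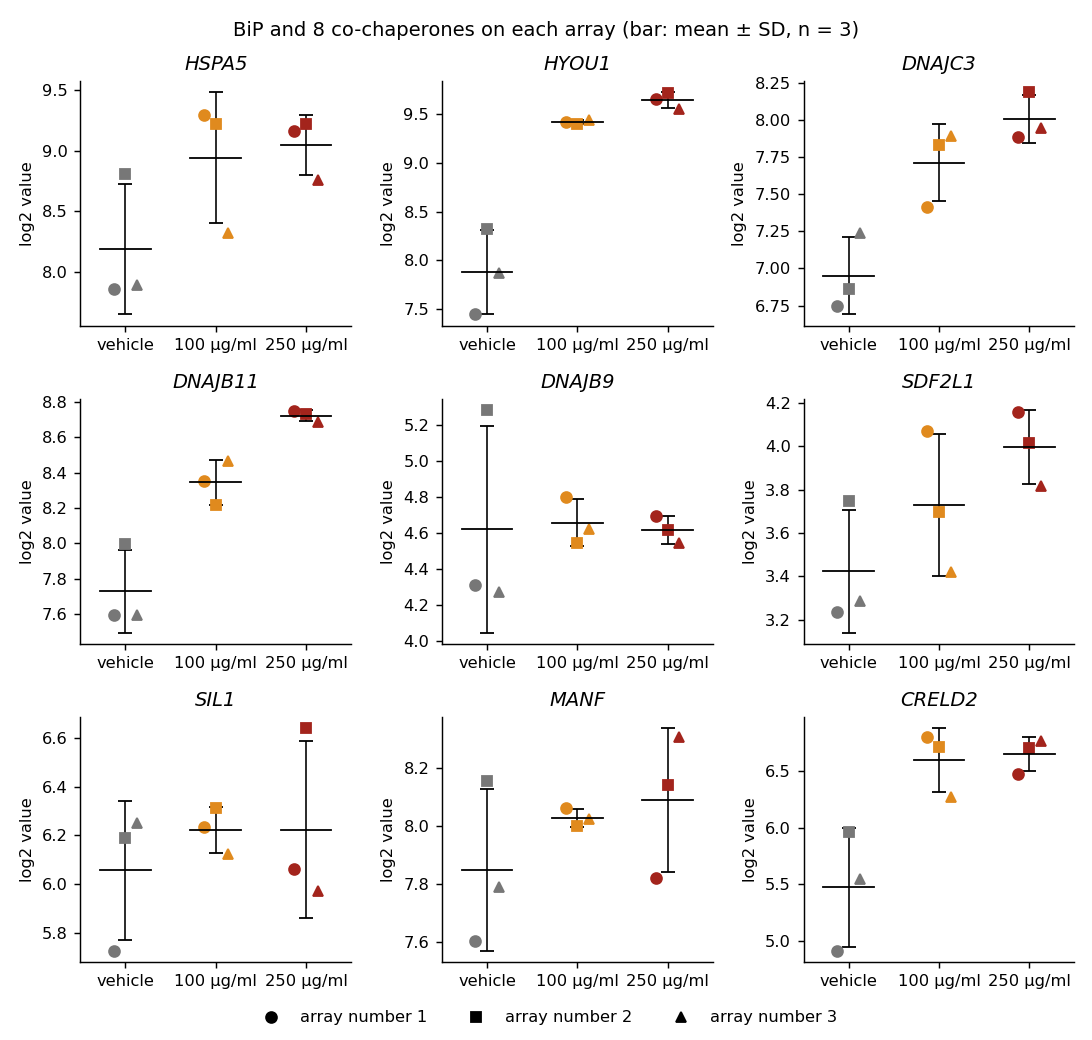
Log2 value of each gene on each array, by group, with the array number as the symbol and the mean ± SD of 3 arrays as bars. HYOU1, DNAJC3, DNAJB11 and CRELD2 on treated arrays lie above every vehicle array at both doses, whereas HSPA5, DNAJB9, SIL1 and MANF overlap the vehicle.

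At 100 µg/ml 1 of the 9 genes rose, HYOU1, and 0 fell, where 0.0563% of all genes were called higher and 0.00704% lower. At 250 µg/ml 3 rose, HYOU1, DNAJC3 and DNAJB11, and 0 fell, where 0.387% of all genes were called higher and 0.162% lower. Treated arrays lay wholly above the vehicle arrays for 4 of the 9 genes at 100 µg/ml, against 6.41% of all genes, and for 5 of the 9 at 250 µg/ml, against 8.61% of all genes. At an unadjusted limma p under 0.05, 5 of the 9 were higher at 100 µg/ml (7% of all genes) and 6 at 250 µg/ml (8.74% of all genes), and 0 were lower at either dose (7.65% of all genes at 100 µg/ml and 7.9% at 250 µg/ml). Group means were higher than vehicle for 9 of the 9 at 100 µg/ml (40.8% of all genes) and for 8 of the 9 at 250 µg/ml (42.7% of all genes). The median change of the 9 was 0.62 at 100 µg/ml, beside -0.05 over all genes, and 0.86 at 250 µg/ml, beside -0.04 over all genes. Both comparisons use the same vehicle arrays, so they are not separate evidence. The 9 genes were listed with earlier results of these arrays known, so counts beside the shares of all genes are descriptions and not a test. With the replicate number as a block 0 genes were called at 100 µg/ml and 3 at 250 µg/ml, and with only the 6 arrays of the comparison in the fit 0 were called at either dose.

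**Figure D3:**
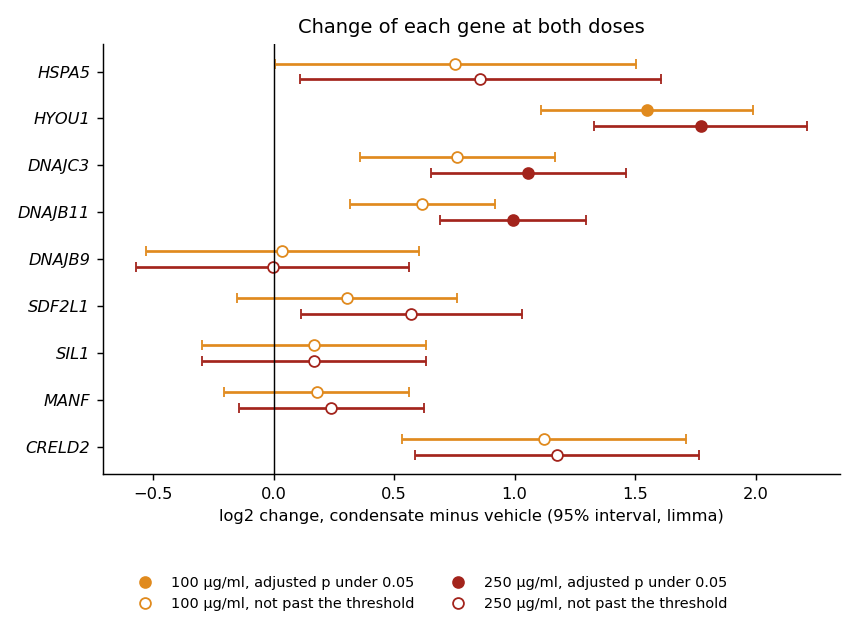
Log2 change of each gene against vehicle at 100 and 250 µg/ml with its 95% interval from limma, filled where the adjusted p over 14207 genes was under 0.05. HYOU1 has the largest change at both doses (1.55 and 1.77), and the intervals of DNAJB9, SIL1 and MANF include 0 at both.

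The doses did not differ from each other by the test for any of the 9 genes, nor for any of the 14207 (limma adjusted p of 0.99998 for each of the 9). At an unadjusted p under 0.05, 140 genes (0.985% of all) were higher and 122 (0.859%) lower at 250 than at 100 µg/ml, and of the 9 only DNAJB11 was among them. The 250 µg/ml arrays lay wholly above those of 100 µg/ml for HYOU1 and DNAJB11, 2 of the 9 (3.32% of all genes), and wholly below for 0 of the 9 (2.86% of all genes). Means were higher at 250 µg/ml for 8 of the 9 (54.4% of all genes). The largest difference between doses among the 9 was that of DNAJB11, 0.38 ± 0.13 log2 units (95% interval 0.07 to 0.68). Arrays of the same number at both doses varied together over all genes, so differences were also taken within a number. DNAJB11 was higher at 250 than at 100 µg/ml by 0.39, 0.52 and 0.22 in the numbers 1, 2 and 3. HYOU1 was higher by 0.23, 0.32 and 0.11, DNAJC3 by 0.47, 0.36 and 0.06, and SDF2L1 by 0.09, 0.32 and 0.40. These 4 of the 9 genes were higher at 250 µg/ml in 3 of 3 numbers, against 17.7% of all genes. HSPA5 had -0.13, 0.0017 and 0.44, and CRELD2 had -0.32, -0.0056 and 0.49, so the sign differed between numbers for both genes. It also differed for MANF (-0.24, 0.14 and 0.28), SIL1 (-0.17, 0.33 and -0.15) and DNAJB9 (-0.11, 0.07 and -0.08).

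The ratio of each co-chaperone to HSPA5 on the same array shows whether it moved by another amount than BiP. The log2 ratio of HYOU1 to HSPA5 was -0.41, -0.49 and -0.03 on the vehicle arrays, 0.14, 0.19 and 1.12 at 100 µg/ml, and 0.50, 0.51 and 0.80 at 250 µg/ml. These are signals of different probe sets, so only their differences between groups can be read. DNAJB9 and SDF2L1 were far dimmer than HSPA5, and an effect of signal level on the size of a difference was not tested. The change of HYOU1 exceeded that of HSPA5 by 0.80 ± 0.35 log2 units at 100 µg/ml and by 0.91 ± 0.17 at 250 µg/ml (SE, n = 3 per group). With single arrays left out these values ran from 0.48, without the 100 µg/ml array 3, to 0.97 and from 0.81 to 1.05. The change of DNAJB9 was smaller than that of HSPA5, with a difference of -0.72 ± 0.30 for 100 µg/ml and -0.86 ± 0.12 for 250 µg/ml, ranging from -1.01 to -0.53 and from -0.97 to -0.78 with single arrays left out. In both genes the treated and vehicle arrays did not overlap at either dose. Relative to HSPA5, 0.127% of all other genes lay wholly higher, as HYOU1 did, at 100 µg/ml and 0.106% at 250 µg/ml. Those that lay wholly lower, as DNAJB9 did, were 9.38% at 100 µg/ml and 48.4% at 250 µg/ml, so the lower ratio of DNAJB9 was shared with many genes and goes with the higher mean of HSPA5, DNAJB9 itself having differences of 0.04 and -0.0039. The two-sided exact permutation p was 0.1 in each of these 4 comparisons, the smallest that 3 against 3 arrays can give, and 0.32 at 100 µg/ml and 0.4 at 250 µg/ml after adjustment over the 8 pairs of a dose. For the other 6 co-chaperones the ratios overlapped, with differences between -0.69 and 0.37 log2 units over both doses and exact permutation p of 0.2 or more.

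**Figure D4:**
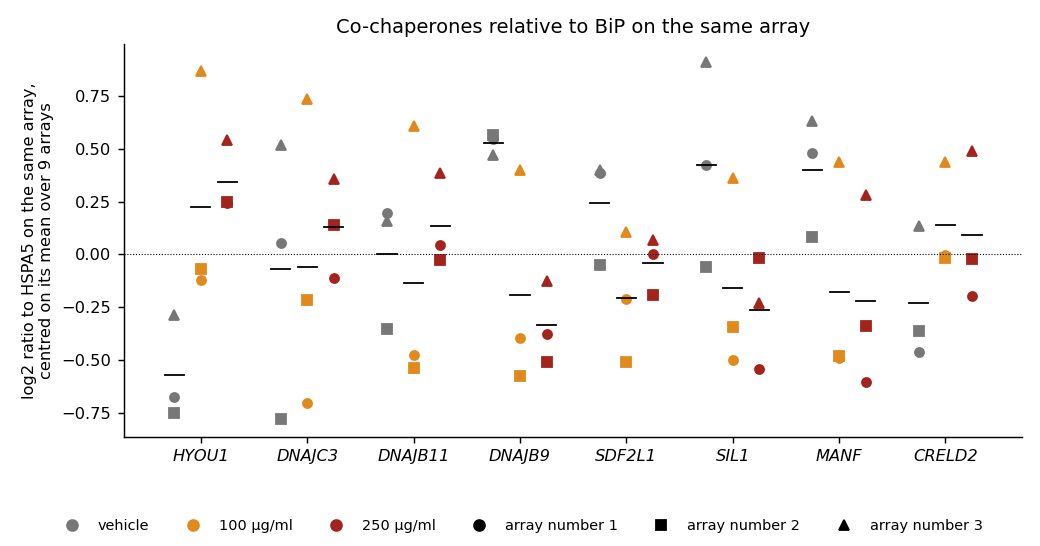
Log2 ratio of each co-chaperone to HSPA5 on the same array, centred on its mean over the 9 arrays, with groups by colour, array numbers by symbol and group means as bars. HYOU1 lies higher and DNAJB9 lower relative to BiP on all treated arrays than on any vehicle array.

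Several of the 9 genes had their highest or lowest value within a group on the same array. Vehicle array 2 was the highest vehicle array for 7 of the 9, HSPA5, HYOU1, DNAJB11, DNAJB9, SDF2L1, MANF and CRELD2, and vehicle array 1 was the lowest for 7. The share of all genes with their extremes on these arrays was not counted, so the counts cannot be read as particular to this set. Vehicle array 1 also had the lowest median (4.52) and upper quartile (6.52) of the 9 arrays. After each gene was centred on its mean over the 9 arrays, the mean of the 9 genes was -0.76, -0.11 and -0.50 on vehicle arrays 1, 2 and 3, and lay between 0.03 and 0.24 on the 100 µg/ml arrays and between 0.23 and 0.41 on the 250 µg/ml arrays. Over the 9 arrays, which share groups, deviations from the group means were correlated with those of HSPA5. The correlation was 0.91 for SDF2L1, 0.73 for CRELD2, 0.72 for DNAJB9 and 0.62 for HYOU1. It was 0.46 for SIL1, 0.36 for DNAJB11, 0.35 for MANF and -0.35 for DNAJC3. Without removal of the group means the correlation with HSPA5 was 0.92 for SDF2L1, 0.87 for CRELD2 and 0.80 for HYOU1. For the others it lay between 0.52 and 0.73.

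Markers of DNA replication also varied between the arrays. All 14 measured had higher means at both doses (40.8% and 42.7% of all genes) and 0 of them passed the test. Their median change was 1.04 for 100 µg/ml, larger than the 0.62 of the BiP set, and 0.50 for 250 µg/ml. At an unadjusted limma p under 0.05, 9 and 2 of the 14 were higher (7% and 8.74% of all genes). Their centred mean was -0.32, -1.36 and 0.0001 on vehicle arrays 1, 2 and 3, and lay between -0.12 and 0.98 at 100 µg/ml and between -0.30 and 0.18 at 250 µg/ml. Vehicle array 2 was thus the lowest for replication and the highest of the vehicle arrays for most of the BiP set. The pigment epithelium markers had lower means in 11 of 11 genes at 100 µg/ml and 9 of 11 at 250 µg/ml, with 0 past the test. The markers of other cells had lower means in 10 of 11 and 8 of 11. Of all 14207 genes 8416 and 8135 had lower means at these doses. The centred mean of the pigment epithelium markers lay between 0.05 and 0.29 in vehicle, between -0.19 and -0.03 at 100 µg/ml and between -0.21 and -0.001 at 250 µg/ml. That of the 11 markers of other cells lay between 0.10 and 0.14 in vehicle, between -0.13 and -0.03 at 100 µg/ml and between -0.09 and -0.01 at 250 µg/ml. Of these lists, 3 and 5 markers lay below the lower quartile on all arrays. That quartile itself ran from 3.08 to 3.14 in vehicle, from 2.93 to 3.14 at 100 µg/ml and from 2.98 to 3.07 at 250 µg/ml. Its part in the lower marker means was not tested. The part of the replication and marker shifts in the changes of the BiP set was not tested.

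Genes that work next to BiP were examined as 4 further lists. Of 10 other ER J-proteins and BiP modifiers 7 were measured, and 0 passed at either dose. Their median change was 0.09 for 100 µg/ml and 0.27 for 250 µg/ml. Means were higher for 5 and 6 of the 7 (40.8% and 42.7% of all genes). At an unadjusted limma p under 0.05, 1 and 3 were higher (7% and 8.74% of all genes). Treated arrays lay wholly above vehicle for 1 and 2 (6.41% and 8.61% of all genes). DNAJC10, an ER reductase with a J-domain, had the largest differences of that list, 0.84 ± 0.21 and 0.87 ± 0.21 (limma adjusted p of 0.199 and 0.101), and is named after its values were seen. FICD, the enzyme that attaches AMP to BiP and removes it, had 0.09 ± 0.13 and 0.27 ± 0.13 (limma adjusted p of 0.79 and 0.338). Of 9 relatives of the members 7 were measured and 0 passed, with medians of 0.18 and 0.21. HSPH1, a cytosolic relative of HYOU1, had 0.60 ± 0.17 and 0.83 ± 0.17 (limma adjusted p of 0.213 and 0.0664), with treated arrays wholly above vehicle at both doses, and is named after its values were seen. SDF2, the relative of SDF2L1, had 0.18 ± 0.45 and 0.16 ± 0.45, and CRELD1, the relative of CRELD2, had 0.30 ± 0.21 and 0.38 ± 0.21, with limma adjusted p from 0.396 to 0.884.

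Of 11 sensors and transcription factors of the unfolded protein response 9 were measured, and 0 passed. Their median change was -0.13 for 100 µg/ml and -0.04 for 250 µg/ml. These medians cover changes in both directions, from -1.06 to 0.78 and from -1.15 to 0.89. Means were higher for 4 of the 9 at each dose (40.8% and 42.7% of all genes). Treated arrays lay wholly above vehicle for 1 and 3 of them (6.41% and 8.61% of all genes). They lay wholly below for 0 and 1 (11.9% and 14.3% of all genes). ATF6, the membrane-bound factor that acts on ERSE sequences, had 0.41 ± 0.18 and 0.61 ± 0.18 (limma adjusted p of 0.354 and 0.165), and its treated arrays lay above the vehicle at both doses. XBP1 transcripts had 0.28 ± 0.32 and 0.26 ± 0.32, ATF4 had -0.25 ± 0.24 and -0.10 ± 0.24, and DDIT3, which encodes CHOP, had -1.06 ± 0.48 and -1.15 ± 0.48, with limma adjusted p from 0.278 to 0.852. The array does not report the splicing of XBP1 or the cleavage of ATF6. Among other ATF6 and XBP1 targets 18 of 22 were measured, and their median change was 0.33 for 100 µg/ml and 0.35 for 250 µg/ml. SSR3, of the translocon-associated complex, was the 1 gene past the threshold there, at 250 µg/ml (1.49 ± 0.24, limma adjusted p = 0.0491). At 100 µg/ml the SSR3 change was larger in mean, 1.75 ± 0.24, but did not pass (limma adjusted p = 0.0713). That mean lay above the 1.55 of HYOU1 at the same dose. At each dose 14 of the 18 had higher means and 4 lower (40.8% and 42.7% of all genes higher). Treated arrays lay wholly above vehicle for 7 of the 18 at each dose (6.41% and 8.61% of all genes). They lay wholly below for 1, EDEM1 (11.9% and 14.3% of all genes). EDEM1 had -0.65 ± 0.21 and -0.64 ± 0.21 (limma adjusted p of 0.248 and 0.193), and is named after its values were seen.

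**Figure D5:**
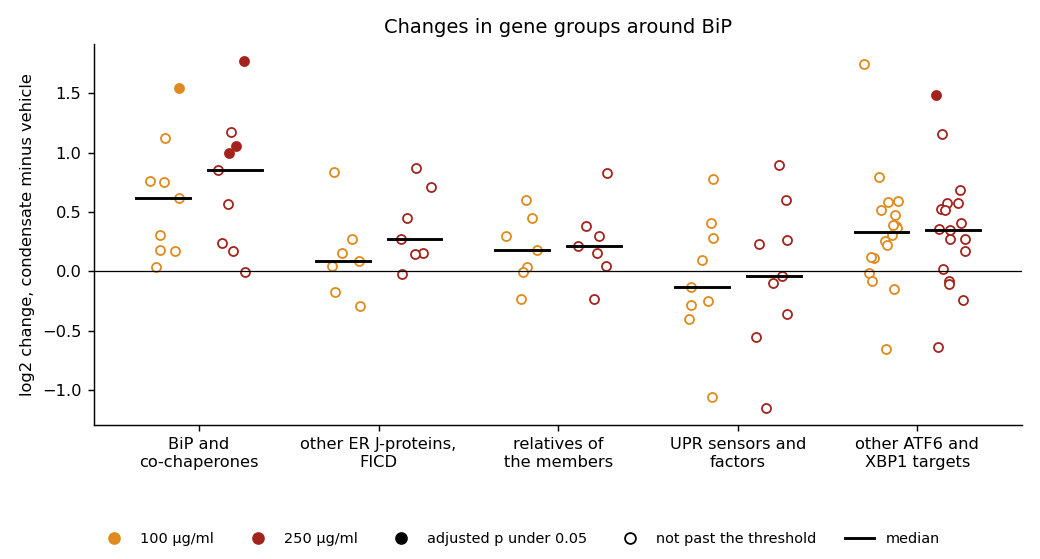
Log2 change against vehicle of each measured gene in 5 groups, at 100 and 250 µg/ml, filled where the adjusted p over all genes was under 0.05, with the median of each group as a bar. The median of BiP and its co-chaperones is 0.62 at 100 µg/ml and 0.86 at 250 µg/ml, and that of the sensors and factors is -0.13 and -0.04.

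Genes with an exact ERSE or ERSE-II match in the window were set beside those without, a comparison chosen after the data were seen and described without a test. The 4 of the 9 genes with such a match had changes between 0.30 and 1.55 at 100 µg/ml and between 0.57 and 1.77 at 250 µg/ml. The 5 without it had changes between 0.04 and 0.76 and between -0.0039 and 1.06, and held DNAJC3 and DNAJB11. Outside the 9, 24 measured genes had a match, whose median change was -0.04 for 100 µg/ml and -0.07 for 250 µg/ml, with 0 past the threshold in either direction. These genes, listed after the data were seen, include HERPUD1, with -0.24 ± 0.24 at 250 µg/ml, and SERP1, with 0.91 ± 0.20 (limma adjusted p of 0.645 and 0.0789). At an unadjusted limma p under 0.05, SERP1, CALR and CANX were the 3 higher genes at each dose (7% and 8.74% of all genes). SYNPO and GLRA2 were the 2 lower at 100 µg/ml (7.65% of all genes), and 0 were lower at 250 µg/ml (7.9%). Means were higher for 11 and 10 of the 24 (40.8% and 42.7% of all genes). ALG12, a mannosyltransferase gene read in the opposite direction, has a promoter window that overlaps that of CRELD2 by 295 bases and holds the same ERSE. ALG12 differed from vehicle by -0.17 ± 0.17 for 100 µg/ml and by 0.13 ± 0.17 for 250 µg/ml (limma adjusted p of 0.665 and 0.716), beside 1.12 ± 0.26 and 1.18 ± 0.26 for CRELD2.

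By correlation over the 9 arrays, the genes outside the set with the pattern most like that of HSPA5 were SGPL1 (0.975), LRRC59 (0.972), PDIA4 (0.97), ELMOD2 (0.965) and VCP (0.953). PDIA4 is an ER disulfide isomerase and LRRC59 an ER membrane protein. Most like the mean of the 9 centred genes were SERP1 (0.972), ALG3 (0.964), TFF2 (0.962), PIGM (0.961) and COQ3 (0.961). With 9 arrays in 3 groups and so many candidate genes, these are descriptions of shared pattern only.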

How the data were processed

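Total RNA of 9 ARPE-19 samples was measured on 1-colour arrays. The deposited values are log2 intensities per probe set, made by the authors with RMA and Partek on build hg18, per the submitters' processing notes, which state neither versions nor roles. Of 17629 probe sets, 14378 name 1 gene in the platform annotation, 2405 several and 846 none; the probe set with the highest mean was kept for each of 14207 genes. No scanner files were used, so background and dim spots could not be judged, and the number of arrays limits the precision.

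limma 3.58.1 in R 4.3.3 was fitted to all 9 arrays with 1 mean per group and Benjamini-Hochberg adjustment over all genes (threshold 0.05). The fit was tested on simulated data. Ratios to HSPA5 were compared by exact permutation. The members and gene lists were chosen with earlier results of these data known. Named were all 9 genes, list genes past the threshold, 8 fixed genes (of which CDNF has no probe set in the annotation used here), and the 5 genes most alike in pattern to HSPA5 and to the mean of the 9. DNAJC10, HSPH1, EDEM1, HERPUD1, ALG12, and SERP1, CALR, CANX, SYNPO and GLRA2 among the promoter matches, were named after their values were seen. Promoters are from RefSeq, GRCh38.p14, matched by symbol for 9 of 9 genes. Same-numbered arrays of both doses varied together (correlation of deviations 0.603, 0.443 and 0.682), a pairing found in the data; with the vehicle arrays these lay between -0.142 and 0.265, so numbers did not pair. Alternatives covered scaling, a filter on dim genes, array weights, the arrays fitted, the replicate block, variance moderation, the probe set kept and each array left out.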

Additional observations from a re-analysis of the deposited data

How the results depend on the processing

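Of the 9 genes, 1 was called at 100 µg/ml and 3 at 250 µg/ml. At 100 µg/ml the count was 0 with only the 6 arrays, with the replicate block, without variance moderation, without the arrays numbered 3 of both doses and with the replicate block on 6 arrays, and 0 to 1 with single arrays left out. At 250 µg/ml it was 0 with only the 6 arrays, without moderation and with the replicate block on 6 arrays, and 0 to 3 with single arrays left out. Between doses 0 were called in all alternatives, the replicate block included. Over all genes 9 were called at 100 µg/ml: 4 with quantile scaling, 73 with array weights, 1 with 6 arrays, 3 with the replicate block, 0 without moderation, 47 without the arrays numbered 3, 0 with the replicate block on 6 arrays, and 1 to 57 with single arrays left out. At 250 µg/ml 78 were called (55 higher, 23 lower): 153 with median centring (82 higher, 71 lower), 129 with quantile scaling (65 higher, 64 lower), 140 among brighter genes, 234 with array weights, 1 with 6 arrays, 122 with the replicate block, 3 without moderation, 167 without the arrays numbered 3, 1 with the replicate block on 6 arrays, and 4 to 296 with single arrays left out. The cause was not tested.

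Signs turned only for small changes. DNAJB9 had -0.048 at 100 µg/ml with array weights (-0.14 to 0.37 with single arrays left out), and at 250 µg/ml 0.0036 with array weights and 0.033 without the arrays numbered 3 (-0.18 to 0.33). SIL1 at 250 µg/ml ran from -0.040 to 0.30. Between doses, array weights gave -0.030 for HSPA5, 0.052 for DNAJB9 and -0.035 for CRELD2; leaving out the arrays numbered 3 gave -0.063 for HSPA5, -0.049 for MANF and -0.16 for CRELD2; SIL1 had -0.028 with median centring and -0.032 with quantile scaling. With single arrays left out the difference between doses ran from -0.21 to 0.28 for HSPA5, -0.096 to 0.031 for DNAJB9, -0.21 to 0.13 for SIL1, -0.047 to 0.20 for MANF and -0.11 to 0.16 for CRELD2. Leaving out the arrays numbered 3, and the block on 6 arrays, were chosen after seeing the data.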
